A study of Mus musculus with 4 samples.

Results

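The genes described here are 9 factors of the formative epiblast and the early neural lineage: Otx2, Sall2, Zic2, Zic5, Sox4, Sox11, Pou3f1, Fgf5 and Gap43. They were taken by gene symbol from the array's platform annotation, which gave 16 probe sets among the 22690 of the table and 9 genes among 12393. The genes were grouped with the results of this same knockdown in view, so their differences are given as a description and carry no test. R1 cells, an established line of mouse embryonic stem (ES) cells, received short hairpin RNAs (shRNAs) by lentiviral infection, in duplicate. In 2 samples the shRNA was directed at Brg1, the motor subunit of SWI/SNF chromatin remodellers, and in the 2 controls at the glucose transporter GLUT4. All 4 samples therefore carried a lentiviral shRNA, and all were harvested 67 h after infection. Total RNA of each was read on 1 Affymetrix array. The labels do not say whether cells were selected for infection or how many different shRNAs were used, and p-values measure only the spread between these duplicate samples.

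The formative epiblast is the state through which naive pluripotent cells pass before they respond to the signals of gastrulation. Otx2 and Pou3f1 (Oct6) are transcription factors of that transition, and Fgf5, a fibroblast growth factor, is a classic marker of the epiblast after implantation. Zic2 and Zic5 are zinc finger factors of the epiblast and the neural plate, Sall2 is a spalt-like zinc finger factor, Sox4 and Sox11 are the SoxC transcription factors of neural progenitors and neurons, and Gap43 is a membrane protein of growing axons. In mouse ES cell cultures several of these genes mark cells on the way out of the naive state.

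The upstream sequences of the transcription factor genes with the lowest values relative to the control are shown for Otx2, Sox4 and Sox11, as RefSeq gives them for build GRCm38.p6. Each is the 250 bases before the gene's start, 5′ to 3′ on the gene's own strand, and capitals mark the letters CCAAT on either strand. The Otx2 window is chr14:48667645-48667894, minus strand, before the most upstream of its 4 listed starts. For Sox4 it is chr13:28953700-28953949, minus strand, and for Sox11 chr12:27342719-27342968, minus strand.
Otx2: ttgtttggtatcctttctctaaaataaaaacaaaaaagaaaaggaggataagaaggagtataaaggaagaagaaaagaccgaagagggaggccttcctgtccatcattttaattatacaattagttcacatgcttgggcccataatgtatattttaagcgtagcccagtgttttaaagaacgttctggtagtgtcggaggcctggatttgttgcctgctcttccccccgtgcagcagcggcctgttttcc
Sox4: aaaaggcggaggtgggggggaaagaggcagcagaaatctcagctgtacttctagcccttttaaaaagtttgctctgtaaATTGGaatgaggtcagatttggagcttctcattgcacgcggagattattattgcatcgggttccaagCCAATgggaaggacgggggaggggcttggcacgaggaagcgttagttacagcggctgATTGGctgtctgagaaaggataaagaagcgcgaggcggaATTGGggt
Sox11: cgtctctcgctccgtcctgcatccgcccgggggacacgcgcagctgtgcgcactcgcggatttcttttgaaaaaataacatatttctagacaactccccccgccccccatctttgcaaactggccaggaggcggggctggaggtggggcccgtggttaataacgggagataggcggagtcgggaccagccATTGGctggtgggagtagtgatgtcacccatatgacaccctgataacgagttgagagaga
The Sox4 window held CCAAT 4 times, starting 171, 104, 47 and 8 bases before the start, and the Sox11 window once, 60 bases before it. No CCAAT lay in the Otx2 window shown, while the window of its second start held 1, 70 bases before that start. Of 32841 windows of the same length, 33.9% held CCAAT on either strand.

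Entries were found for 6 of the 9 genes, and Zic2, Pou3f1 and Gap43 had none. CpG dinucleotides numbered 24 in the Fgf5 window, 17 in Sox11, 11 in Sox4, 11 in Zic5 and 6 in the upstream Otx2 window, against a median of 6 over all windows. Sall2 has 2 starts, whose windows held 0 and 6. TATAAA was in the upstream windows of Otx2 and Sall2 and in 12.4% of all windows. GGGCGG, a GC box, was in Sox11 (2 times) and Fgf5 (1 time) and in 32.7% of all. The letters GGATTA, a core bound by OTX-type homeodomains, were found before the third start of Otx2 and in 6.25% of all. Neither the octamer ATGCAAAT (1.6% of all) nor the SOX core ACAATG (10.7% of all) was in any window of the 6 genes. All motifs were searched on both strands and none of them contains another. Zic5 and Zic2 are neighbours in RefSeq, with 0 protein-coding genes between them.

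The values are linear signal units on a scale shared by the arrays, all of which had a trimmed mean of 200.1 (2% cut at either end). Median signals were 49.5 and 50 in the knockdown and 46.6 and 48.2 in the control, and the 3' to 5' ratio of beta-actin, a measure of RNA integrity, lay between 1.31 and 1.36 in both groups. Smarca4, which encodes Brg1, read 652.1 and 621.5 in the knockdown and 1187 and 1214 in the control, which is -0.89 ± 0.08 (SE) in log2 units, with adjusted p = 0.000232 in limma. All 8 ES cell markers were at or above the filter level of 23.9 units. Only 1 of 10 fibroblast markers was, and their summed signal was 142.4 and 158.4 in the knockdown against 126.1 and 154.3 in the control. Of 8 primitive endoderm markers 2 reached it (summed signal 211.0 and 257.1 against 177.0 and 189.4), and 5 were higher on both knockdown arrays and 2 lower. Foxa2, an endoderm factor, rose past the test, with 35.7 and 51.9 against 9.90 and 16.3 (0.94 in log2 units, limma, adjusted p = 0.0139). Both control values were under the filter level, and in limma fitted to every probe set Foxa2 did not pass (adjusted p = 0.0903). The level was reached by 1 of 7 primitive streak and mesoderm markers (summed signal 117.2 and 123.3 against 80.5 and 86.4). Of 8 markers of differentiated neurons 3 did, with summed signals of 1533 and 1510 against 1599 and 1601. Most of that sum was Stmn2, without which it was 226.8 and 259.5 against 205.3 and 239.0. Col1a1, a fibroblast collagen, lay between 5.90 and 16.0 on the 4 arrays, and the fibroblast marker at the filter level was Thy1, which neurons also express. The part of these cell types in the results was not tested, and in bulk RNA fewer cells of a type and less RNA per cell cannot be told apart.

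Folds and differences below are on the scale log2(signal + 20) with the knockdown minus the control. Of the 7815 genes tested, 14.4% passed the test (limma, adjusted p under 0.05), 729 higher and 398 lower. That split depends on the scale: 42.5% of the calls were higher with each array centred on its median and 97.5% with the arrays scaled to their hybridisation spike-ins, against 64.7% as deposited. The spike-ins averaged 9.51 and 9.24 on the log2 scale in the knockdown against 9.73 and 9.64 in the control. Scaling to them moved the median difference of all tested genes from 0.04 to 0.31.

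In outline, 7 of the 9 genes were lower on both knockdown arrays than on both control arrays, which held for 20.3% of all genes on the array. Over probe sets it was 13 of 16, beside 21.1% of all probe sets. Otx2 and Gap43 differed most, at 1.86-fold and 1.87-fold, and Sox11 and Sox4 came next. Sall2 and Zic5 were lower by less, and the 2 probe sets of Pou3f1 disagreed. Zic2 and Fgf5 lay below the filter level, which the other 7 reached. Since the genes were grouped on this contrast, nothing is read from these counts, and no test result of the 9 genes is given.

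**Figure D1:**
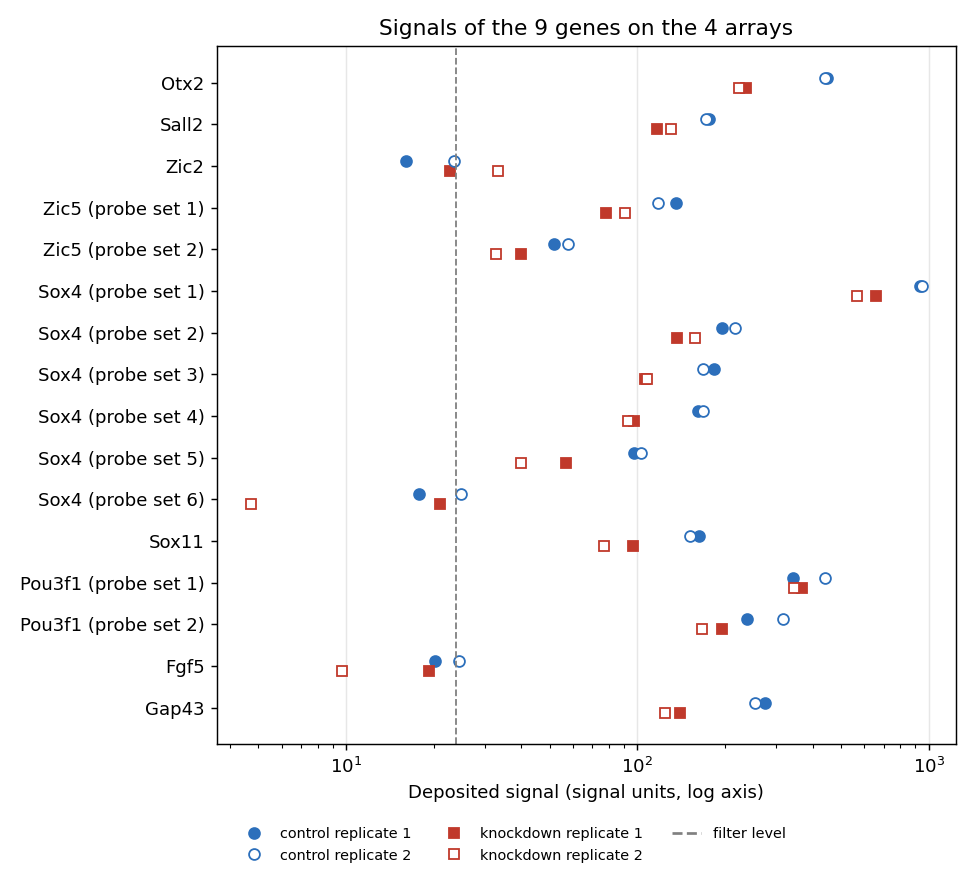
Deposited signal (signal units, log axis) of every probe set of the 9 genes on the 4 arrays, with circles for the control and squares for the knockdown, and the filter level of 23.9 units as a dashed line. The knockdown squares lie to the left of the control circles in 13 of the 16 probe sets, and the probe sets of Zic2 and Fgf5 and 1 of Sox4 lie around or below the dashed line.

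Otx2 (probe set 1425926_a_at), the homeodomain factor that drives the exit from the naive state, had signals of 236.2 and 222.8 in the knockdown and 449.2 and 439.6 in the control. The groups lay far apart and the duplicates close together, with gaps of 0.08 (knockdown) and 0.03 (control) on the log2 scale. The difference was -0.90 ± 0.08 (SE; n = 2 each), a signal 1.86-fold lower. By the distance between profiles centred on each gene's mean over the 4 arrays, the tested gene most like Otx2 was Smarca4 itself (distance 0.04 on the log2 scale). It was followed by Mpdz (0.08), a scaffold protein with PDZ domains, Bcat1 (0.08), a transaminase of branched-chain amino acids, Slc16a3 (0.09), a lactate transporter, and Tro (0.11). The log2 differences of these 5 ran from -0.80 in Tro to -0.97 in Mpdz. A likeness over 4 arrays in 2 groups reflects mainly the size of the difference.

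The other gene of this size was Gap43 (1423537_at), the growth cone protein. Its signals were 140.3 and 124.2 in the knockdown against 275.2 and 253.3 in the control, so the knockdown arrays again lay wholly below. The difference was -0.90 ± 0.11 (SE), or 1.87-fold, against gaps between duplicates of 0.15 and 0.11. Among the genes related to Gap43 in function, the membrane substrate gene Marcks fell from 603.9 ± 20.3 to 387.6 ± 24.1 signal units (SD, n = 2 each), which is -0.62 ± 0.09 (SE) in log2 units, with adjusted p = 0.00292 in limma. Basp1 (log2 difference 0.00, adjusted p = 0.99) and Marcksl1 (-0.02, adjusted p = 0.903) did not pass the test, although another bright probe set of Marcksl1 gave -0.41, at means of 1532 against 2031. The 4 dimmer probe sets of Marcks with a knockdown mean between 64.6 and 130.5 gave differences from -0.49 to -0.75, and the dimmest gave 0.06. With the arrays scaled to the spike-ins the difference of Marcks was -0.32 and its call was lost (limma, adjusted p = 0.265).

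**Figure D2:**
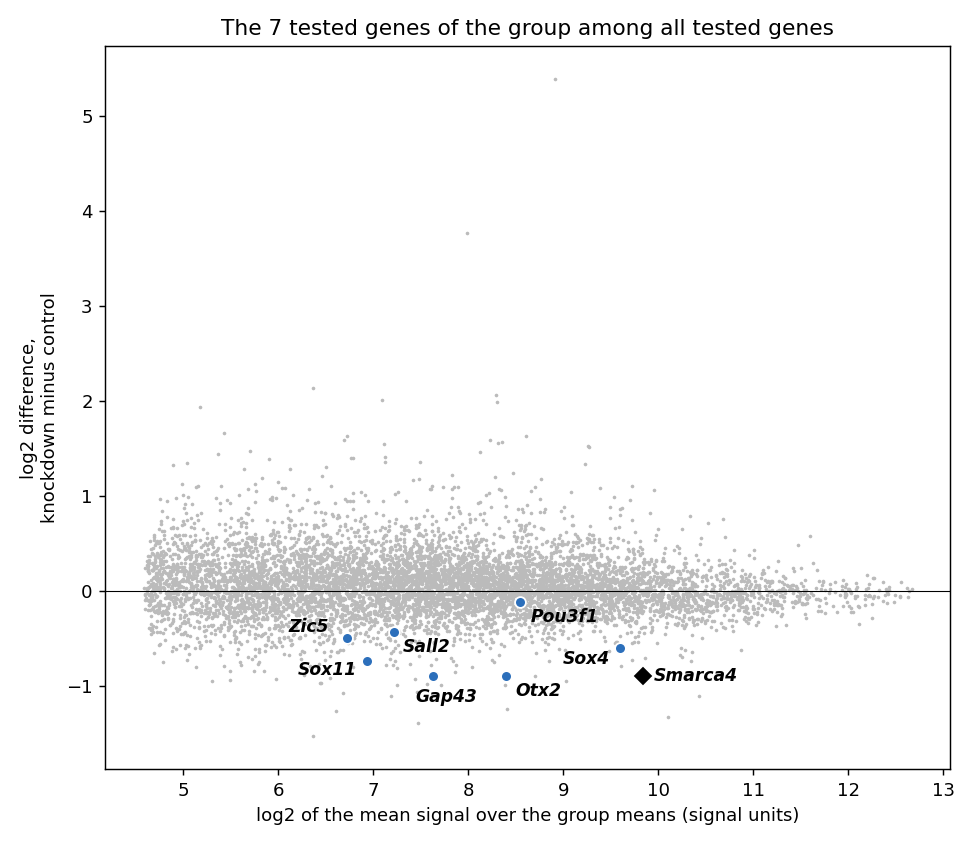
Log2 difference, knockdown minus control, against the log2 of the mean signal for the 7815 tested genes (grey), the 7 tested genes of the group (blue) and Smarca4 (black). Otx2 and Gap43 lie at -0.90, level with Smarca4 at -0.89, while Pou3f1 lies near 0 at -0.12.

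The SoxC genes Sox4 and Sox11 encode closely related HMG box factors. Sox4 has 6 probe sets, which share the gene and are not replicates of each other. The brightest (1433575_at) read 659.6 and 565.8 in the knockdown and 930.7 and 948.5 in the control, a difference of -0.60 ± 0.09 (SE), or 1.52-fold. Of the other 5, 4 were also lower on both knockdown arrays, with differences of -0.44, -0.63, -0.69 and -0.82. The largest of these (1419156_at) came with the widest spread, at 56.9 and 39.8 in the knockdown against 97.4 and 102.7 in the control. The last probe set (1455867_at) lay below the filter level and its groups overlapped, at 21.0 and 4.70 against 17.8 and 24.7. The size of the Sox4 difference therefore depended on the probe set by more than its SE, while all 6 lay below 0 on the deposited scale.

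Sox11 (1436790_a_at) read 96.9 and 76.6 in the knockdown and 162.7 and 151.6 in the control. The groups did not overlap, although the knockdown duplicates differed by 0.28 on the log2 scale. The difference was -0.74 ± 0.14 (SE), or 1.67-fold. Sox12, the remaining SoxC gene, did not pass the test, at 374.0 and 385.1 against 380.9 and 461.0 (log2 difference -0.14 ± 0.11, adjusted p = 0.423). The SoxB1 genes did not pass it either: Sox2, a core pluripotency factor, had a difference of -0.22 ± 0.09 (adjusted p = 0.125) and Sox3 one of 0.32 ± 0.18 (adjusted p = 0.267). Without the first knockdown array Sox2 passed at -0.35, and without the second Sox3 passed at 0.62. With the spike-in scaling Sox3 also passed (0.58, limma, adjusted p = 0.0366), while Sox2 was at 0.08 (adjusted p = 0.763). Sox1 and Sox21 were below the filter level. Whether Sox4 and Sox11 differ from Sox12 in their response was not tested.

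The zinc finger genes differed less. Sall2 (1416638_at) read 116.6 and 130.2 in the knockdown and 176.1 and 172.1 in the control, a difference of -0.44 ± 0.11 (SE), or 1.36-fold, with no overlap. Its paralogs Sall4 (log2 difference -0.04, adjusted p = 0.756), Sall1 (-0.07, adjusted p = 0.753) and Sall3 (0.39, adjusted p = 0.218) did not pass the test.

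Zic5 gave like values with both of its probe sets. The brighter (1456140_at) read 77.9 and 90.4 in the knockdown and 135.3 and 117.9 in the control, a difference of -0.49 ± 0.14 (SE). The dimmer (1425666_at) read 39.8 and 32.8 against 51.9 and 57.9, a difference of -0.41 ± 0.17 (SE). Neither set of groups overlapped, but the gaps between duplicates reached 0.18 on the log2 scale.

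Zic2 (1421301_at), the neighbour of Zic5, read 22.8 and 33.3 in the knockdown and 16.1 and 23.5 in the control. Its mean of 23.5 units lay just under the filter level, the groups overlapped, and the difference of 0.27 ± 0.20 (SE) was no larger than the gaps of 0.32 and 0.27 between duplicates. It was the 1 gene of the 9 whose difference lay above 0. Zic1 and Zic4 also lay below the filter level.

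Pou3f1, the POU factor of the primitive ectoderm, was measured by 2 probe sets that disagreed. The brighter (1422068_at) read 367.6 and 345.3 in the knockdown and 340.9 and 441.7 in the control, so the groups overlapped and the difference was -0.12 ± 0.13 (SE). The other (1460038_at) read 195.5 and 167.3 against 238.3 and 316.1, without overlap, for a difference of -0.55 ± 0.15 (SE). On both, the second control array was the highest, and the control duplicates differed by 0.36 and 0.38 on the log2 scale. Without that array the difference of the brighter probe set was 0.06, and without the first control array it was -0.30. The related genes Pou3f2, Pou3f3 and Pou3f4 were below the filter level.

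Fgf5 (1426186_a_at) was near the floor of the array in every sample, at 19.2 and 9.70 in the knockdown and 20.2 and 24.5 in the control. The groups did not overlap, but by only a small margin, and the difference of -0.31 ± 0.20 (SE) was smaller than the gap of 0.40 between the knockdown arrays. Whether Fgf5 changed cannot be told from this difference. Of the other FGF ligands of the ES cell and early embryo, Fgf4 rose from 514.8 ± 50.6 to 743.4 ± 43.6 (SD, n = 2 each), which is 0.52 ± 0.10 (SE) in log2 units, with adjusted p = 0.00854 in limma. Fgf15 fell by 0.44 ± 0.11 in log2 units (adjusted p = 0.0251), and Fgf17 did not pass (0.30 ± 0.10, adjusted p = 0.0612). Fgf17 did pass with the mean of its probe sets (0.47, adjusted p = 0.0212), the spike-in scaling (0.60, 0.0355) and the crossed replicate block (0.045), with a range of 0.0212 to 0.196. The call of Fgf15 was lost without a filter on low values (limma, adjusted p = 0.0619) and with the spike-in scaling (-0.16, adjusted p = 0.579). It was also lost without the second knockdown array (log2 difference -0.40), the first control array (-0.44) or the second control array (-0.45). A second bright probe set of Fgf4 gave 0.51, at means of 656 against 456.6, and a dimmer probe set gave 0.35. With the mean of all 4 of its probe sets, the dimmest of them below the filter level, the call of Fgf4 was lost (0.31, limma, adjusted p = 0.076, range over the alternatives 0.00208 to 0.076). Fgf3 and Fgf8 lay below the filter level. The paralog list also holds Basp1, Marcks and Marcksl1, which are related to Gap43 in function and are not counted here as its paralogs by sequence. Over its 12 tested genes, 1 rose (Fgf4), 2 fell (Fgf15 and Marcks) and 9 did not pass. The share called was 25%, beside 14.4% of all tested genes, with a median of -0.03.

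Scaling the arrays to the spike-ins changed what could be said of single genes. The differences then were -0.62 ± 0.20 for Gap43, -0.60 ± 0.19 for Otx2, -0.47 ± 0.22 for Sox11 and -0.30 ± 0.18 for Sox4 (SE), and these 4 still had no overlap between the groups. Zic5 (-0.23), Sall2 (-0.16) and Fgf5 (-0.18) overlapped, and Pou3f1 turned to 0.18. Relative to the median of all tested genes, which takes out a shift common to an array, Otx2 was at -0.93 as deposited and -0.92 with the spike-ins, and Gap43 at -0.94 and -0.93. The dim genes moved more, from 0.23 to 0.13 in Zic2 and from -0.35 to -0.49 in Fgf5.

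**Figure D3:**
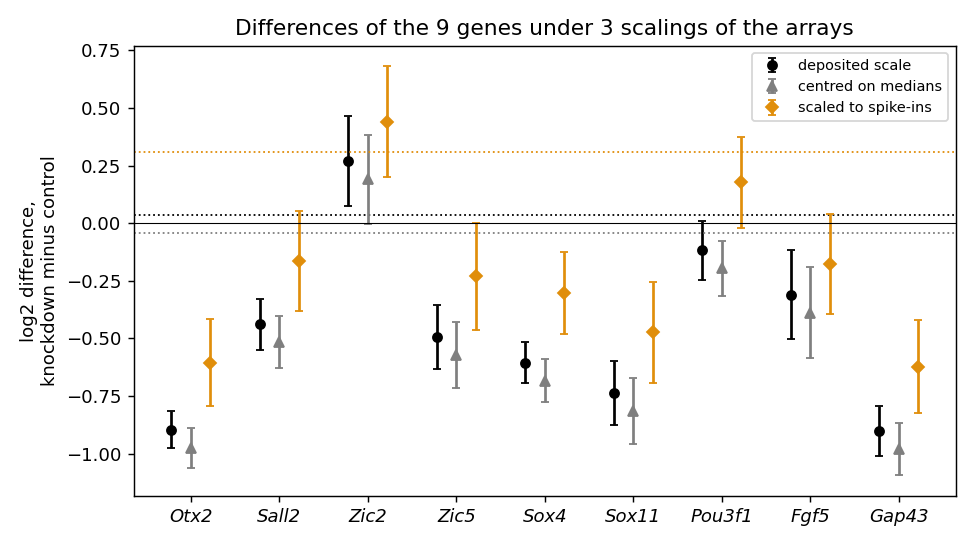
Log2 difference, knockdown minus control, of the 9 genes on the deposited scale (circles), with arrays centred on their medians (triangles) and with arrays scaled to the spike-ins (diamonds), with SE bars from limma fits without a filter. Dotted lines mark the median of all tested genes on each scale, 0.04, -0.04 and 0.31, and Otx2 and Gap43 lie lowest on all of them.

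Further genes of the formative and primed epiblast were counted from a list without the 9. Of 25 genes, 19 were tested, of which 6 fell, 1 rose and 12 did not pass; the share called was 36.8%, beside 14.4% of all tested genes. The list median was -0.16, against 0.04 for all tested genes. With limma fitted to every probe set 4 of the 7 calls remained, Pim2, Dnmt3a, Dnmt3b and Nodal. The list contains genes already known to change in these data and is no independent evidence.

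The kinase gene Pim2 fell from 992.2 ± 18.2 to 565.9 ± 39.5 (SD, n = 2 each), which is -0.79 ± 0.09 (SE) in log2 units, with adjusted p = 0.000551 in limma. Lef1, a nuclear effector of Wnt signalling, fell from 102.9 ± 1.13 to 50.3 ± 5.52 (SD), or by -0.81 ± 0.14 (SE) in log2 units (adjusted p = 0.00566). The de novo DNA methyltransferase genes Dnmt3a (-0.73) and Dnmt3b (-0.63) fell with adjusted p = 0.00124 and 0.000781 in limma, although 1 dim probe set of Dnmt3a gave 0.23. Cldn6, a claudin of embryonic epithelia, fell by 0.50 (adjusted p = 0.01). Lin28a, an RNA-binding protein of pluripotent cells, fell by 0.38 ± 0.08 (SE) in log2 units, with adjusted p = 0.018 in limma. That call was lost without the second knockdown array (adjusted p = 0.0558) or the first control array (0.0857), without a filter (0.063) or the intensity trend (0.0764), and with the mean of both probe sets (0.127) or the spike-in scaling (0.808), with a range of 0.00535 to 0.808 over the alternatives. Its second probe set gave -0.10. All 6 falls stayed below 0 with the spike-in scaling, where only Lef1 still passed.

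The rise was Nodal, the TGF-beta family ligand of the epiblast, from 310.6 ± 19.0 to 925.0 ± 22.8 (SD), which is 1.52 ± 0.09 (SE) in log2 units, with adjusted p = 2.53e-05 in limma. Its direction was thus opposite to that of Otx2 and the 6 falls. Among the brightest genes that did not pass were Utf1 (0.16, adjusted p = 0.285), Tdgf1, the Nodal co-receptor (-0.12, adjusted p = 0.344), Etv5 (0.25, adjusted p = 0.104) and Tcf15 (0.00, adjusted p = 0.988). Etv5 did pass with the spike-in scaling (0.55, limma, adjusted p = 0.0405) and without the second control array (0.36).

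Early neural genes beyond the 9 lay on both sides of 0. Of 41 listed, 38 were on the array and 15 were tested, of which 2 rose, 0 fell and 13 did not pass, a share of 13.3% called beside 14.4% of all tested genes, with a median of -0.02. At an unadjusted p under 0.05 in limma, 3 were higher and 1 lower, beside 1497 higher and 949 lower of all 7815. Nefl, a neurofilament subunit, rose from 252.0 ± 40.9 to 431.4 ± 24.1 (SD, n = 2 each), which is 0.74 ± 0.12 (SE) in log2 units, with adjusted p = 0.00442 in limma. Dll1, a Notch ligand, rose by 0.66 ± 0.16 (adjusted p = 0.0276). It lost its call without a filter on low values (limma, adjusted p = 0.107). The call was also lost without the second knockdown array (log2 difference 0.68) or the first control array (0.46). Stmn2, a regulator of microtubules, did not pass (-0.11, adjusted p = 0.355), and its second bright probe set gave 0.12, at means of 613.9 against 562.4. Gbx2 (0.31, adjusted p = 0.116) and the neural stem cell filament gene Nes (-0.02, adjusted p = 0.946) did not pass either. Gbx2 did pass with the spike-in scaling (0.61, limma, adjusted p = 0.0311) and without the second control array (0.50). Most listed neural genes, among them Sox1, Hes5, Lhx2, Six3, Olig2, Neurog1, Dcx and Fabp7, were below the filter level.

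FGF receptors and feedback genes of the ERK pathway, through which FGF ligands act, gave 3 rises, 0 falls and 11 not past the test in 14 tested, with a share of 21.4% called beside 14.4% of all tested genes and a median of 0.19. At an unadjusted p under 0.05, limma had 5 higher and 1 lower. Dusp6, a phosphatase of ERK, rose by 0.62 ± 0.08 (SE) in log2 units, with adjusted p = 0.00134 in limma. Fgfr1 rose by 0.46 ± 0.10 and Fgfr2 by 0.84 ± 0.22, from 40.4 and 46.0 to 67.7 and 125.2 (limma, adjusted p = 0.0173 and 0.0325). Fgfr2 lost its call without a filter (limma, adjusted p = 0.127) or the intensity trend (0.069), and its second probe set gave 0.30. Its call was also lost without the second knockdown array (log2 difference 0.47) or the first control array (0.77). Fgfr1 lost its call without a filter (limma, adjusted p = 0.0553) or the intensity trend (0.0511), and with the mean of its probe sets (0.0594). The same held without the first knockdown array (log2 difference 0.39) or the first control array (0.38). Spry2 (-0.01, adjusted p = 0.957), Spred2 (0.16, adjusted p = 0.492) and Egr1 (0.10, adjusted p = 0.478) did not pass. The probe sets of Spry2 disagreed, as a dimmer probe set gave 0.61, at means of 68.5 against 37.7. Spred2 did pass without the second control array, at 0.41.

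The formative genes are usually read against the factors of the naive state. Of 16 such genes tested, 9 rose, 0 fell and 7 did not pass, a share of 56.2% called beside 14.4% of all tested genes and a median of 0.41. At an unadjusted p under 0.05 limma had 12 higher and 1 lower, the adhesion gene Pecam1 (-0.40, adjusted p = 0.125). Nanog (0.87 ± 0.08), Klf2 (0.76 ± 0.09), Klf4 (0.76 ± 0.13), Tfcp2l1 (0.88 ± 0.14), Nr5a2 (0.57 ± 0.11) and Sox15 (0.92 ± 0.16) had the smallest p of them (SE; limma, adjusted p between 0.000299 and 0.0107). In limma fitted to every probe set, the probe sets used for Klf4, Nr5a2 and Sox15 did not pass (adjusted p = 0.0551, 0.063 and 0.066). Those of 3 of the 9 rises did, namely Nanog, Klf2 and Tfcp2l1. A dimmer probe set each of Klf4 (0.81, adjusted p = 0.0387) and Nr5a2 (0.70, adjusted p = 0.0392) passed in that fit. All 9 rises stayed above 0 with each scaling of the arrays. With the mean of all its probe sets, 2 of them below the filter level, Tfcp2l1 had a difference of 0.18 (adjusted p = 0.435, range over the alternatives 4.36e-06 to 0.435). Zfp42 (0.25, adjusted p = 0.0597), Klf5 (0.25, adjusted p = 0.0983) and Stat3 (0.20, adjusted p = 0.184) did not pass. Zfp42 passed without the first knockdown array (0.32, adjusted p = 0.0415) or the second control array (0.31, 0.043), with quantile normalization (0.0255), the spike-in scaling (0.0162) or the replicate block (0.0402), with a range of 0.0162 to 0.305, and Klf5 without the second control array (0.38, adjusted p = 0.0174) or with the spike-in scaling (0.56, 0.0255; range 0.0174 to 0.734). No test compared this list with the formative one.

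**Figure D4:**
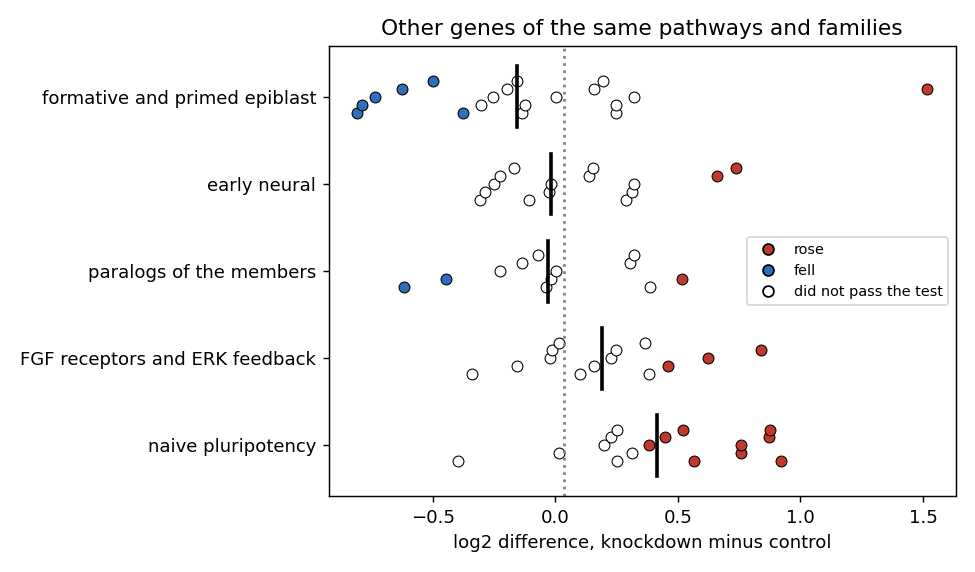
Log2 difference, knockdown minus control, of each tested gene in 5 lists that leave out the 9 genes, with filled points for genes that rose or fell past the test, a black bar at each list's median and a dotted line at the median of all tested genes, 0.04. The formative and primed list has its 6 falls at the left and Nodal alone at the far right, and the naive list lies mostly to the right of the dotted line.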

How the data were processed

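The 4 arrays came as 1 table of signal intensity per probe set. The deposited intensity values were made with the Affymetrix software GCOS, per the submitters' processing notes. Of its version, signal algorithm and scaling target, none is given in the sources used here, and detection calls were not used here. Of 22690 probe sets, 64 were controls, 20380 had 1 gene, 691 several and 1555 none in the platform annotation. Symbols were updated by Entrez ID through RefSeq (GRCm38.p6), which held 20351 of the 20380. All sample columns were used.

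Signals were analysed as log2(signal + 20). A gene is its probe set with the highest mean log2 value (_x_at only where there is no other), tested where that value reached the 40th percentile over probe sets other than controls (23.9 units), leaving 7815 genes. limma 3.58.1 (R 4.3.3; lmFit, eBayes with an intensity trend, two-sided) compared the groups, with Benjamini-Hochberg adjustment over all tested genes. Values, SE and differences of the 9 genes come from limma fitted to each probe set separately, controls left out. On simulated data (7815 genes, 50 changed at each size), 12% of log2 changes of 0.5 and 68% of those of 1 were recovered. The number of arrays limits the precision. The 9 genes, the lists and the naming rule were chosen with earlier results of these data known. Named are the 9 genes, the shRNA target Smarca4, every tested gene of the paralog list and the 5 genes nearest to Otx2. From each list the genes past the test (at most 6) and the brightest that were not (at most 4) are also named. Lin28a, Pecam1, the marker genes and the genes given only as below the filter were named after their values were seen. Slc2a4, the control's target, lay below the filter. Replicate numbers were not used to pair the arrays in the main fit.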

Additional observations from a re-analysis of the deposited data

How the results depend on the processing

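The count of 9 genes with no overlap and lower values in the knockdown was 7 and fell to 4 with the spike-in scaling. Genes past the test numbered 1127, and 433 without a filter on low values. With limma fitted and adjusted over every probe set, an alternative added after the data were seen, 285 genes passed, and the list calls fell to 4 (formative and primed), 3 (naive), and 1 each (Nefl, Dusp6 and Marcks in the early neural, FGF and ERK, and paralog lists). These list calls read each gene by its chosen probe set, and another probe set of Klf4, Nr5a2 and Fgf4 passed in that fit. The ranges given for single genes leave that fit out. Leaving out 1 array gave 601 to 1171, the lowest without the second knockdown array, and 719 without the first control array. Early neural calls went from 2 to 1 without a filter or with the 60th percentile filter, to 4 with the spike-in scaling, and ranged from 1 to 3 without 1 array. FGF and ERK calls went from 3 to 1 without a filter or without the intensity trend, to 6 with the spike-in scaling, and ranged from 2 to 5 without 1 array. Calls of the formative and primed list went from 7 to 4 with the spike-in scaling, 3 higher and 1 lower.

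Of the 9 genes, Pou3f1 moved above 0 with the spike-in scaling (0.18) and without the second control array (0.06), and no other changed sign. A pseudocount of 5 or 60 units gave differences of -0.94 and -0.80 for Otx2, and -0.53 and -0.15 for Fgf5, which was -0.11 without the second knockdown array.

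With the replicate block 1187 genes passed and 7 of the formative list, so the block moved the count little. Among the genes named it changed the call of Zfp42. The deviations of arrays with the same number had a correlation of -0.14 (7815 genes, 2 pairs), and a crossed replicate block gave 1478 calls. The beta-actin ratio was 1.36 on the first array of both groups and 1.31 on the second. Whether the numbers stand for a pairing is not given by the labels and was not settled here. In the simulated data log2 changes of 0.5 were mostly not recovered. That simulation drew each gene's spread at random from all genes and planted 200 changes, while 1127 genes passed in the data. Its share of recovered changes therefore need not hold for these arrays. In the data, differences of about this size lay on both sides of the threshold: Cldn6 (-0.50) passed and Thy1 (-0.48) did not.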
